A study of Rattus norvegicus with 6 samples.

Results

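The AP-1 and EGR immediate early genes were examined in neonatal rat ventricular cardiomyocytes (NRVCs) cultured with or without C3a. The group holds 10 genes, chosen by name: Fos, Fosb, Fosl1, Fosl2, Jun, Junb, Jund, Egr1, Egr2 and Atf3. All 10 were found through the RefSeq accessions of the array probes, among 16581 gene symbols with a probe, and 15 probes in all measured them. NRVCs are heart muscle cells prepared directly from ventricles, here of Sprague-Dawley rats 1 to 2 days old, with the hearts of 8 to 10 animals pooled for a preparation. The control group was 3 samples in the culture medium alone. The C3a group was 3 samples given recombinant C3a, the peptide released when complement C3 is cleaved, at 0.5 µg/ml for 12 h. No genetic change is named for the cells, and both groups share the serum-free medium of the sample records, whereas the methods name a short starvation in low serum before stimulation.

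AP-1 is a dimer of basic leucine zipper proteins. A Jun protein (Jun, Junb or Jund) pairs with itself or with a Fos protein (Fos, Fosb, Fosl1 or Fosl2), and Atf3 joins the same dimers as a stress-responsive partner that often represses. Egr1 and Egr2 are zinc finger factors that bind GC-rich promoter sites. Most of these genes are switched on within minutes of ERK and serum response factor signalling without new protein synthesis, and their transcripts are short-lived. In cardiomyocytes they are known as early genes of stretch, endothelin and adrenergic stimulation.

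The promoter windows of the members were read from RefSeq (assembly GRCr8), which gave 7 of the 10, all but Fos, Jun and Atf3. Each window covers the 250 bases before the annotated start. The sequences of Jund and Egr2 are shown for their values on the brightest probe of each gene. Jund was the only member whose groups did not overlap there, 1 of 9 compared, against 12.5% of all kept probes. Egr2 had the widest spread between samples of the members compared. Capitals mark the cyclic AMP response element TGACGTCA and an EGR site in Jund, and the CArG box, the element bound by serum response factor, in Egr2. The Jund window is chr16:18769772-18770021 on the minus strand and the Egr2 window is chr20:21054442-21054691 on the minus strand, both written 5′ to 3′ along the gene.
Jund: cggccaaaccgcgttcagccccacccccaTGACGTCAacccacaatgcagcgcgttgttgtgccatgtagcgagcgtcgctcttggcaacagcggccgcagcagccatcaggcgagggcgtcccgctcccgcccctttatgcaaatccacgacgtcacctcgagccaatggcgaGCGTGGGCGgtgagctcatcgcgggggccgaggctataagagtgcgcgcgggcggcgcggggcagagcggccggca
Egr2: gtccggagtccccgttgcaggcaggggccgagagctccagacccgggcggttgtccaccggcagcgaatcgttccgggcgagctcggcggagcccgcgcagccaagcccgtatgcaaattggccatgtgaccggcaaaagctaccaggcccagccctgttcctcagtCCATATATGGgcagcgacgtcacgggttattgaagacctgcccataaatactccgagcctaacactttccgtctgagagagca

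A CArG box on either strand was found in the windows of Egr1 and Egr2, 2 of 7 members, against 1.5% of all 33469 windows. Egr1 held 2, CCATATTAGG and CCATATATGG, and the second matched the letters of the Egr2 box and began 83 bases before the start in both genes. TGACGTCA was found in Jund alone of the 7, against 1.59% of all windows. An EGR site, GCGTGGGCG or GCGGGGGCG on either strand, was found in Jund and Fosl2, against 2.85% of all windows. The Jund and Fosl2 windows hold 68.4% and 70.4% G and C, against a median of 51.2% over all windows. The site is itself rich in G and C, so that share is not a like background. None of the 7 windows held the AP-1 site TGACTCA or TGAGTCA, which 4.05% of all windows held. These are letter matches in short windows, and binding of any factor was not measured here.

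Each RNA sample was labelled with Cy3 and hybridised to its own 1-colour Agilent array. Levels are given as the log2 of the background-corrected signal minus the log2 of the 75th percentile of the array, so 0 is a probe at that percentile. Levels of different genes come from different probes and are not ranked against each other. The local background of control replicate 1 (median 47 intensity units) stood above that of the other arrays (23 or 24), and 38.6% of its probes were well above background against 53.7% to 57.3% elsewhere. Controls and C3a arrays occupied separate lines of positions on 1 slide, so position and treatment cannot be told apart. The labels do not say whether the samples of a group came from separate preparations, so the p-values measure the spread between these samples, and precision is limited by the number of arrays. Each of the 6 arrays had all 11 cardiomyocyte genes with a probe well above background, Myh6 (alpha myosin heavy chain) among them. Markers of other cell types passed that limit on all 6 arrays too, so passing it does not single out 1 cell type. In such cultures, fewer cells of a type and less RNA per cell cannot be told apart.

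At 12 h, transcripts of 7 of the 10 members were well above background on all 6 arrays. Fos and Junb were so on 5 arrays, all but control replicate 1, and Fosb was on none. The probe with the highest mean signal of a gene was used for it. That probe was kept for the comparison, that is well above background on all 3 arrays of a group, for 9 members. In limma, fitted over all 23438 kept probes, 0 of these 9 differed between C3a and control at an adjusted p under 0.05, where 0% of all kept probes did. At an unadjusted p under 0.05 limma also gave 0 of 9, where 5.82% of all kept probes passed (3.34% higher and 2.48% lower with C3a), and the test of the methods gave 0 of 9. The fitted log2 fold change (C3a minus control) was above 0 for 5 members and below 0 for 4, with a median of 0.12. Over all kept probes 62.3% were above 0, with a median of 0.048. Without normalization between arrays the median of all kept probes was -0.28, and 2 of 9 members lay above 0 and 5 of 9 above that median.

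**Figure D1:**
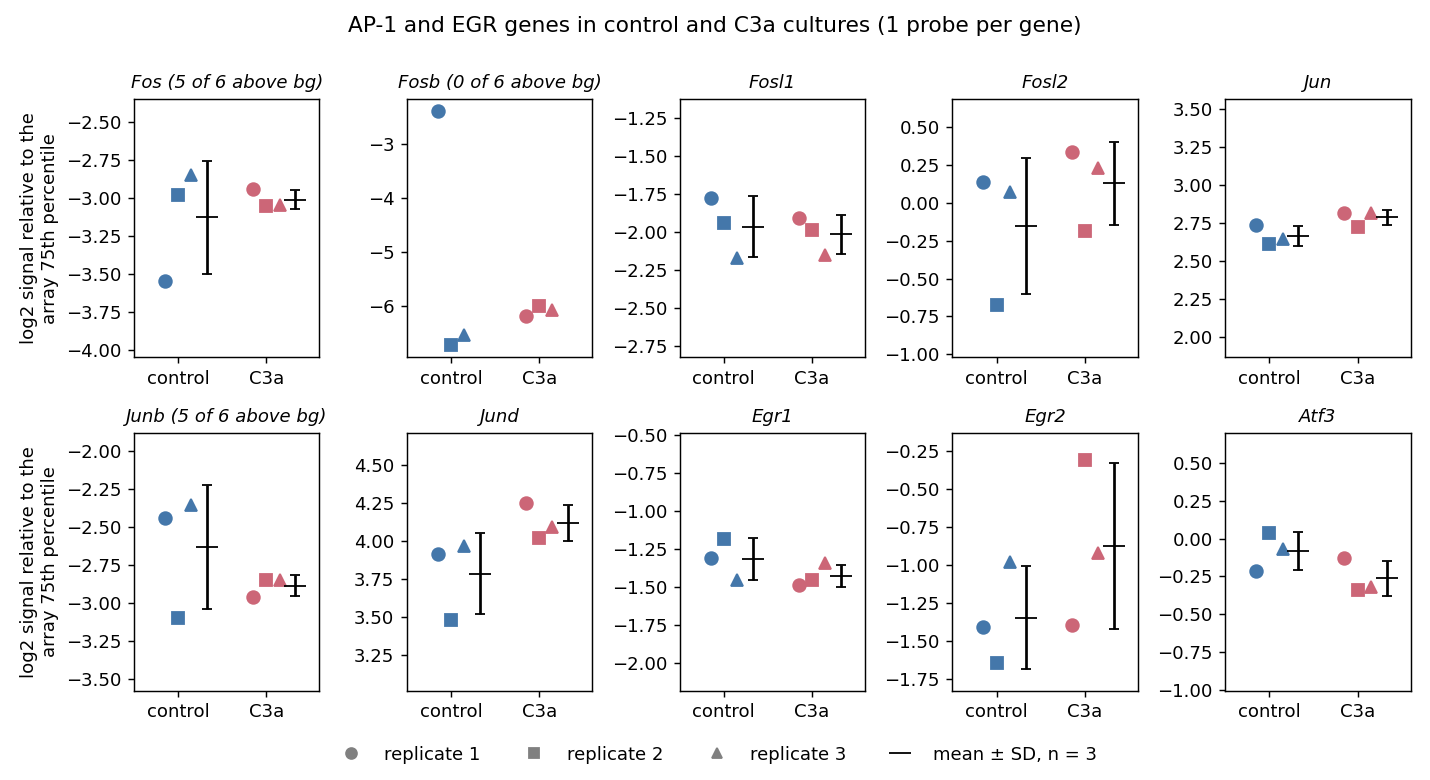
Level of each gene (log2 signal relative to the array 75th percentile, 1 probe per gene, axes set per gene) in the 3 control and 3 C3a arrays, with replicates by symbol and the mean ± SD (n = 3) beside them. The C3a arrays of Jund, between 4.02 and 4.25, sit above its controls, and for the other measured genes the groups overlap. No mean is drawn for Fosb, which no array measured well above background.

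Among the Fos proteins, Fos, the prototype of the family, was dim. Its level was -3.55, -2.98 and -2.85 in control replicates 1 to 3 and -2.94, -3.05 and -3.04 in the C3a replicates. The C3a values lay within the range of the controls, and the lowest value was that of control replicate 1, where the probe was not well above background. The log2 fold change of Fos was 0.12 (95% interval -0.32 to 0.55, adjusted p = 0.854 from limma), turning to -0.096 when control replicate 1 was left out and to -0.21 without normalization. The Fos probe was spotted in duplicate, and on control replicate 1 its spots read -3.98 and -3.22, farther apart than the group means.

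Fosb, a close relative of Fos, had no reading well above background. Its probe read -2.39 on control replicate 1, where the background was high, and between -6.73 and -5.99 on the other 5 arrays. No fold is given for it.

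Fosl1 (Fra-1), which lacks the transactivation domain of Fos, lay at -1.78, -1.94 and -2.17 in the controls and at -1.90, -1.99 and -2.15 with C3a. The C3a values lay inside the control range, and in both groups replicate 1 was the highest and replicate 3 the lowest. C3a minus control came to -0.052 on the log2 scale (95% interval -0.36 to 0.26, adjusted p = 0.914 from limma), and its sign differed between settings.

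Fosl2 (Fra-2), the other Fos relative without that domain, was measured by 3 probes. The brightest read 0.13, -0.67 and 0.07 in the controls and 0.34, -0.18 and 0.23 with C3a. Replicate 2 was the lowest in both groups, and the groups overlapped. Its log2 fold change was 0.28 (95% interval -0.29 to 0.86, adjusted p = 0.758 from limma), and was 0.025 when control replicate 2 was left out. The other probes disagreed with it, at -0.34 (95% interval -1.16 to 0.48) and -0.026 (95% interval -0.36 to 0.31), and the mean over the 3 probes gave -0.026. All 3 probes carry 1 RefSeq accession, so the direction for Fosl2 depended on the probe.

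Jun, the founding member of its family and a partner of Fos, was bright, and its brightest probe was narrow in spread. Its level was 2.74, 2.62 and 2.65 in the controls and 2.82, 2.73 and 2.82 with C3a, so that control replicate 1 lay just above C3a replicate 2. The fitted change for Jun was 0.12 on the log2 scale (95% interval -0.095 to 0.34), or 1.09-fold, with an adjusted p of 0.745 from limma and p = 0.2 in a two-sided exact permutation test. Without normalization it was -0.20. The probe was spotted 10 times on every array, which gives the error within an array. The SD among the 10 spots was between 0.046 and 0.080 on the log2 scale, so the standard error of an array's mean was 0.014 to 0.025. The SD between samples was larger than that error, 0.065 in the controls and 0.052 with C3a. A further Jun probe gave 0.11 (95% interval -0.23 to 0.45), so both probes of Jun gave nearly the same value. Only 5.55% of kept probes had a lower spread within groups than the brighter Jun probe, whose values average 10 spots an array. The further probe, with 1 spot an array, had an SD within groups of 0.19, and 60.0% of kept probes had a lower one. The narrow spread thus belongs to the brighter probe.

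Junb, which is often induced alongside Fos and weakens Jun activity on some promoters, lay at -2.44, -3.10 and -2.36 in the controls and at -2.96, -2.85 and -2.85 with C3a. The C3a arrays lay close together inside the range of the controls. For Junb the log2 fold change was -0.25 (95% interval -0.72 to 0.21, adjusted p = 0.749 from limma). Control replicate 2 was the lowest of the 6 arrays. Without it the value was -0.49, with an unadjusted p of 0.00234 and an adjusted p of 0.991, both from limma. The controls left in that fit include replicate 1, where the Junb probe was not well above background. Without control replicate 1 the value was -0.16, and without control replicate 3 it was -0.12.

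Jund, the Jun protein that is made steadily in resting cells, was the one member whose groups did not overlap on its brightest probe. Its level was 3.91, 3.48 and 3.96 in the controls and 4.25, 4.02 and 4.09 with C3a. All 3 C3a arrays lay above all 3 controls, with control replicate 3 and C3a replicate 2 nearest to each other. Of all kept probes, 12.5% had groups that did not overlap (8.04% with C3a higher and 4.46% with C3a lower). The 1 of 9 members is close to that share. The mean ± SD of Jund was 3.78 ± 0.27 (SD, n = 3) in the controls against 4.12 ± 0.12 (SD, n = 3) with C3a. The fitted log2 fold change was 0.33 (standard error 0.15, 95% interval -0.024 to 0.69), or 1.26-fold. Its unadjusted p was 0.0634 and its adjusted p 0.743 from limma, and the two-sided exact permutation test gave p = 0.1, the smallest that 3 against 3 allow. A further Jund probe, designed to another RefSeq accession of the gene, gave 0.039 (95% interval -0.20 to 0.28), with values from -1.54 to -1.39 in the controls and from -1.51 to -1.35 with C3a, so the difference was not seen there. Without control replicate 2, the lowest array, the value of the brighter probe was 0.18, and without normalization between arrays, where the median of all kept probes was -0.28, it was 0.0089.

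Atf3, induced by stress and able to repress AP-1 sites, lay at -0.21, 0.035 and -0.07 in the controls and at -0.13, -0.34 and -0.32 with C3a. The groups overlapped through control replicate 1 and C3a replicate 1. The log2 fold change of Atf3 was -0.18 (95% interval -0.44 to 0.083), or 0.882-fold, with an adjusted p of 0.743 from limma and p = 0.2 in a two-sided exact permutation test. It was below 0 in all 16 alternative settings, from -0.51 to -0.12. Its probe was spotted in duplicate, and the SD of the pair was at most 0.053 on any array.

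Egr1, the EGR factor most used as a marker of ERK activation, lay at -1.31, -1.18 and -1.46 in the controls and at -1.49, -1.46 and -1.34 with C3a. The groups overlapped, with control replicate 3 among the C3a arrays. For Egr1 the log2 fold change was -0.11 (95% interval -0.37 to 0.14), or 0.924-fold, with an adjusted p of 0.768 from limma.

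Egr2 (Krox-20) varied most between samples among the 9 members compared, taking the brightest probe of each gene. Its brighter probe read -1.41, -1.65 and -0.98 in the controls and -1.39, -0.31 and -0.92 with C3a. The highest value was that of C3a replicate 2, and C3a replicate 1 lay at the level of control replicate 1. The log2 fold change of Egr2 was 0.47 (95% interval -0.21 to 1.16), or 1.39-fold, with an adjusted p of 0.743 from limma and p = 0.2 in a two-sided exact permutation test. It was 0.19 without C3a replicate 2 and 0.73 without C3a replicate 1. A dimmer Egr2 probe ran the other way. It read -3.11, -4.45 and -4.08 in the controls and -5.22, -4.53 and -5.86 with C3a. These groups did not overlap, but the reading passed the background limit only in control replicates 2 and 3. The probe was not in the comparison, and no direction is given for Egr2.

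**Figure D2:**
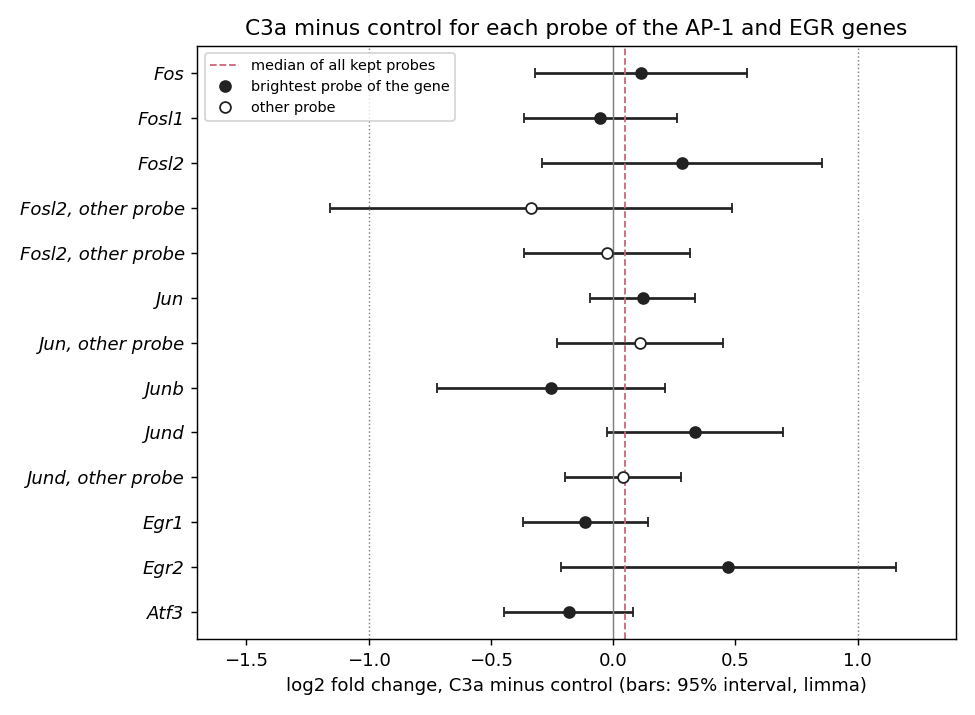
Log2 fold change (C3a minus control, horizontal axis) with its 95% interval from limma for the 13 kept probes of the genes, filled for the brightest probe of a gene and open for others. Every interval includes 0, the dashed line marks the median of all kept probes (0.048) and the dotted lines mark a change of 1 on the log2 scale.

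The intervals show which sizes of change at 12 h the arrays leave room for. No earlier time was sampled, so a change that had come and gone before 12 h was not measured. On the brightest probe, the 95% interval from limma lay between -1 and 1 on the log2 scale for 8 of the 9 members, all but Egr2. Of all kept probes, 94.1% had an interval within these limits. A dimmer kept Fosl2 probe did not, with an interval of -1.16 to 0.48. On simulated arrays of the same 23438 probes, limma called 7 of 50 probes changed by 0.5, 32 of 50 changed by 1 and 48 of 50 changed by 2. A further 50 probes were changed by 3, and the many larger changes ease the adjusted limit for the smaller ones. The simulated noise was independent between arrays, with the SDs of the kept probes in shuffled order. The counts are thus not a rate for these members, whose fitted changes were at most 0.47.

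The spread between samples of a group differed widely among the brightest probes of the members. The pooled SD within groups was 0.059 for Jun, 0.11 for Egr1, 0.12 for Atf3, 0.17 for Fosl1 and 0.21 for Jund. It was 0.27 for Fos, 0.29 for Junb, 0.37 for Fosl2 and 0.45 for Egr2. Egr2 and Fosl2 stood high among all kept probes, of which 95.5% and 90.9% had a lower SD. A dimmer kept Fosl2 probe had a wider SD within groups, 0.55, than any of these. Control replicate 2 gave the lowest value of the 6 arrays for 5 of the 9 members, namely Fosl2, Jun, Junb, Jund and Egr2. The share of all kept probes with their lowest value on that array was not counted. The 75th percentile of control replicate 2 was also the highest, 367 intensity units against 207 to 288 on the other arrays. The part of this in the members' values was not tested.

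Arrays of equal replicate number deviated together over all kept probes, so the differences were also taken between arrays of the same number. The number is also the place of the array along the slide, and a shared preparation and a shared place cannot be told apart. On the brightest probe of each gene, the C3a array lay above its control in all 3 pairs for Fosl2, Jun, Jund and Egr2. That is 4 of 9 members, where 25.2% of all kept probes did so, and 0 of 9 lay below in all 3 pairs, where 13.7% did, or 38.9% in either direction. The differences for Jund were 0.34, 0.54 and 0.12, and those for Fosl2 were 0.20, 0.49 and 0.16. Those for Jun were 0.077, 0.11 and 0.17. For Egr2 replicate 2 carried nearly all of the difference, with 1.34 against 0.015 and 0.059. The further Jun probe was also above in all 3 pairs. The other probes of Fosl2 and Jund had pairs on both sides of 0, and the dimmer Egr2 probe lay below in all 3. With the replicate number as a block, limma gave an unadjusted p of 0.028 for Jund and 0.0407 for Fosl2, so that 2 of 9 members were under 0.05, both higher, where 13.6% of all kept probes were (7.82% higher and 5.83% lower). The adjusted p with the block was 0.312 for Jund and 0.345 for Fosl2, and 0 of 9 members passed. With the block, limma gave the other probes an unadjusted p of 0.71 for Jund and of 0.42 and 0.86 for Fosl2.

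**Figure D3:**
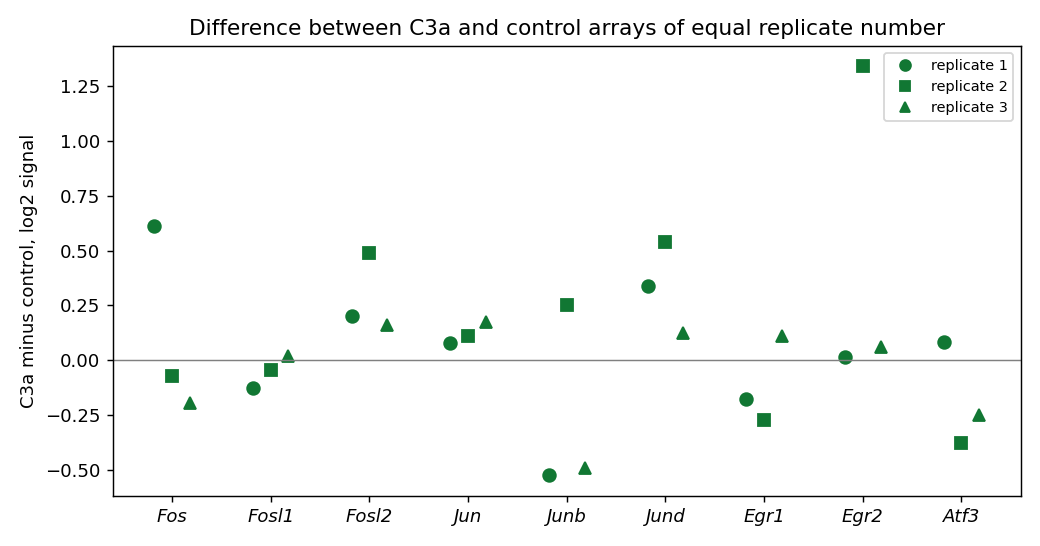
C3a minus control (log2 signal, vertical axis) between arrays of equal replicate number for the brightest probe of the 9 measured genes, with a symbol for each replicate. The 3 differences of Fosl2, Jun, Jund and Egr2 lie above 0, and those of the other 5 genes fall on both sides.

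Genes that share the pathway were described from lists written by name. The comparison by gene used the 10390 genes with a kept probe, of which 5.33% had an unadjusted p under 0.05 (2.91% higher and 2.43% lower), 60.6% a fitted change above 0, and a median log2 fold change of 0.036. In none of the lists did a gene pass an adjusted p of 0.05 from limma, with or without the replicate block. Of 20 other basic leucine zipper factors, 18 could be compared, with 13 above 0, a median of 0.054 and 0 under an unadjusted p of 0.05. The largest change was that of Mafk, a small Maf protein, with a log2 fold change of -0.51 (standard error 0.25, adjusted p = 0.743 from limma). Its level was -1.48, -0.57 and -1.24 in the controls and -1.51, -1.41 and -1.90 with C3a, which overlapped.

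The EGR corepressors Nab1 and Nab2 were measured, whereas Egr3 and Egr4 were not kept, with Egr3 well above background on 1 array and Egr4 on none. Nab2, itself a known EGR target, had a log2 fold change of 0.18 and Nab1 one of 0.067, and for both the C3a arrays lay above all controls (13% of all genes with a kept probe had groups that did not overlap). Neither passed, with adjusted p of at least 0.743 from limma. Wt1, a related zinc finger factor, had the largest change in this list, 0.34 (standard error 0.30), and its groups overlapped. Without control replicate 1, where its probe was not well above background, the value was 0.14.

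Among 21 kinases and factors upstream of these promoters, 17 could be compared, with a median of 0.017 and 10 above 0. Map2k7, a kinase that activates JNK, was the only one under an unadjusted p of 0.05 in limma. It read -4.13, -3.02 and -2.80 in the controls and -2.57, -2.59 and -2.13 with C3a, which did not overlap. It was the only 1 of the 17 without overlap, where 13% of all genes with a kept probe had none. Its log2 fold change was 0.89 (standard error 0.34, adjusted p = 0.743), and on control replicate 1, its lowest reading, the probe was not well above background. Without that array the value was 0.48 (adjusted p = 0.675 from limma). Srf, the factor that binds the CArG box, had a log2 fold change of 0.12 (standard error 0.10) at levels between 4.67 and 4.98.

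Of 22 further immediate early genes, 20 could be compared, with 15 above 0 and a median of 0.071. Arc, a gene of this class known from neurons, was the only one with an unadjusted p under 0.05 in limma. It read -3.28, -3.41 and -3.25 in the controls and -3.05, -2.80 and -3.06 with C3a, with a log2 fold change of 0.35 (standard error 0.11, adjusted p = 0.743 from limma). Its probe, too, was not well above background on control replicate 1, and without that array the value was 0.37. Nr4a1, an early nuclear receptor gene, was bright and flat, between 3.41 and 3.48 on all 6 arrays. Ptgs2 and Nr4a3 were not well above background on any array.

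The pattern of Egr2 was set against 8555 genes well above background on all arrays. Taking 1 probe per gene, Egr2 had the highest SD over the 6 arrays (0.48) among members well above background on all of them. The likeness was the root mean square difference of values centred on the mean of the gene. The nearest were Evc2 at 0.22, Marcksl1 at 0.23 and Fam184b at 0.24, where the median gene lay at 0.45. As this choice implies, each had C3a replicate 2 at or near the top and control replicate 2 among its lowest readings. Their log2 fold changes were 0.16, 0.17 and 0.21, with adjusted p of at least 0.769 from limma.

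Markers of the other cell types in such cultures were read on the same arrays. Of the fibroblast markers 10 of 10 were compared, with 2 above 0 and a median log2 fold change of -0.043. Lum, which encodes the matrix protein lumican, was the one marker of the 5 lists under an unadjusted p of 0.05 in limma, with a log2 fold change of -0.54 (standard error 0.21, adjusted p = 0.743). It read -3.13, -2.72 and -3.25 in the controls and -3.92, -3.23 and -3.57 with C3a, which overlapped. Col1a2 was well above background on all 6 arrays, and Lum, Tcf21 and Thy1 on 5. The log2 of the summed signal of the compared genes, here called the summed level, ran from 6.63 to 6.81 in the controls and from 6.61 to 6.84 with C3a. For the 11 cardiomyocyte markers the median was 0.13, and the summed level ran from 12.2 to 12.5 in the controls and from 12.4 to 12.6 with C3a. Of the endothelial markers 5 of 8 were compared, with a median of 0.14 and summed levels of 5.05 to 5.52 and 5.40 to 5.74. Vwf passed the background limit on all 6 arrays, and Emcn and Tie1 on 4. All 6 smooth muscle markers were compared, with a median of 0.077 and summed levels of 5.53 to 5.74 and 5.65 to 5.72. Tagln passed the background limit on all 6 arrays, and Cnn1 and Rgs5 on 5. Macrophage genes were mostly dim apart from Lyz2, with 4 of 10 compared, a median of 0.063 and summed levels of 2.50 to 2.82 and 2.49 to 2.62. Lyz2 (2.22 to 2.57) and Cd68 (-0.84 to -0.15) were well above background on all 6 arrays. Of the other macrophage genes Cd163, Mrc1 and C1qa were well above background on no array, Ptprc on 1, Adgre1 on 3, Fcgr1a on 4 and Csf1r and C1qb on 5. The summed levels of all 5 lists overlapped between the groups, and their part in the values of the members was not tested.

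**Figure D4:**
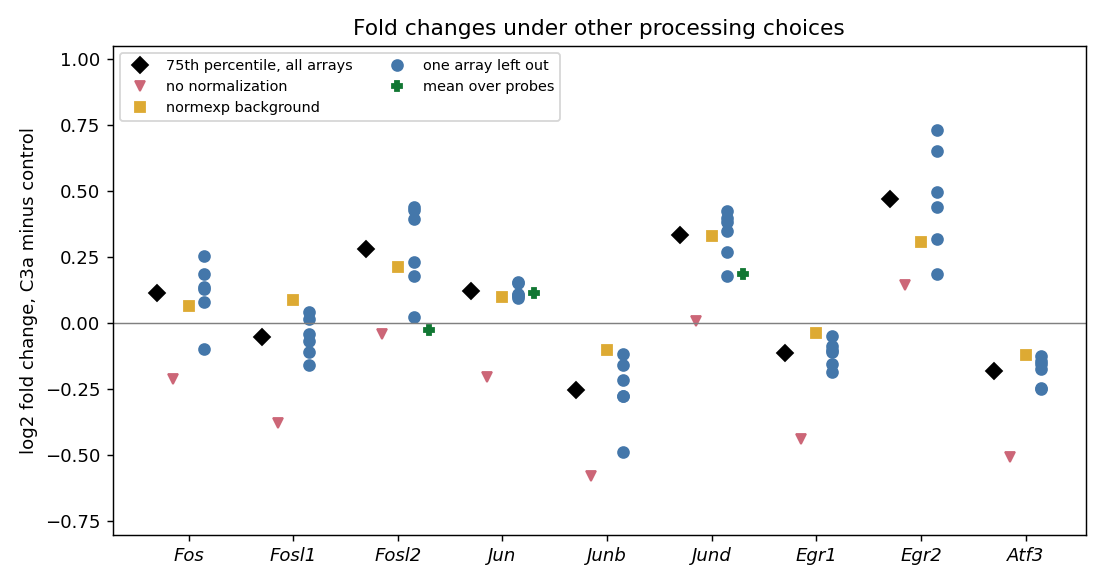
Log2 fold change (C3a minus control, vertical axis) of the 9 measured genes under the main setting, without normalization, with normexp background correction, with each array left out in turn, and as the mean over the kept probes of Fosl2, Jun and Jund. Junb, Jund, Egr1 and Atf3 stay on one side of 0 in all of these, as does the 1 kept probe of Egr2, and Fos, Fosl1, Fosl2 and Jun do not.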

How the data were processed

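RNA of 3 control and 3 C3a samples was measured on 6 arrays of 1 slide. The deposited scanner output holds spot intensity from Agilent Feature Extraction 11.5.1.1, background-subtracted and not normalized between arrays. A deposited table of log2 values differed from the log2 intensity scaled to the array's 75th percentile by at most 0.00586 at the median. That table was used as an alternative.

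Control spots and outlier spots were left out, spots of one probe were averaged, and each array was scaled by its 75th percentile before log2. A probe was kept if well above background (at least 50% of its spots) on all 3 arrays of a group. Accessions were named through the RefSeq table of assembly GRCr8, which matched 21109 of 45598 probes. The promoter coordinates are those of the same assembly. The comparison used the lmFit and eBayes functions of limma 3.58.1 (R 4.3.3) on 23438 kept probes, two-sided, with Benjamini-Hochberg adjustment over all of them, and was checked on simulated arrays. The test of the methods, a variance analysis that with 2 groups is the equal-variance test, was run on the same values, and exact permutation tests used scipy 1.17.1. Figures were drawn with matplotlib 3.10.9.

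The members and lists were chosen with earlier results of these data known. All members are named, as are the genes of each list with an unadjusted p under 0.05 or else the largest change; Srf, Nab1, Nab2, Nr4a1, Ptgs2, Nr4a3, Egr3, Egr4 and Spp1 were named after their values were seen. A gene that this rule names is not reported here. Deviations from group means correlated at 0.28, 0.32 and 0.31 between arrays of equal number and between -0.26 and -0.093 otherwise. This pairing comes from the values, not from the labels, and arrays of equal number also share their place along the slide.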

Additional observations from a re-analysis of the deposited data

How the results depend on the processing

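The counts of 0 members and 0 probes at an adjusted p under 0.05 were the same in 15 of the 16 alternative settings, and without normalization 4 probes, none of them a member, passed. At an unadjusted p under 0.05 from limma, 0 of 9 members became 1 without normalization (Junb), where 2599 of 23438 probes passed. The count was also 1 (Jund) with normexp, where 984 of 23438 passed, and with a variance trend, where 1512 did. Among probes well above background on all 6 arrays it was 1 of 7 members (Jund), where 1009 of 17506 probes passed. With the replicate block it was 2 (Jund and Fosl2), where 3198 of 23438 passed. Leaving out an array gave 0 to 1, where 709 to 2139 of 23438 probes passed. The member was Junb without control replicate 2, Jund without control replicate 3 and Egr2 without C3a replicate 1.

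In the main setting, 1364 of 23438 probes had an unadjusted p under 0.05 from limma. The values without normalization were -0.21 for Fos, -0.042 for Fosl2 and -0.20 for Jun, turned from above 0, beside a median over all kept probes of -0.28 there against 0.048. Normexp turned Fosl1 to 0.088, and the mean over its probes turned Fosl2 to -0.026. Leaving out an array gave -0.096 to 0.25 for Fos and -0.16 to 0.042 for Fosl1, and no change of sign for the other 7. The cause was not tested. Junb, Jund, Egr1 and Atf3 kept their sign in all alternatives run. So did the brighter Egr2 probe, but no mean over the Egr2 probes was run, as the dimmer one was not kept, and that probe read lower with C3a. Leaving out control replicate 1 for Wt1, Map2k7, Arc and Lum was chosen after seeing the data. The replicate block changed no call at an adjusted p. Normexp was run on the median spot signal. Fos and Junb had no value with the filter on all 6 arrays. Low signal over background limits Fos, Fosb, Junb and the dimmer Egr2 probe.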

Other observations

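Genes known as targets of AP-1 were read as a list, of which 15 of 20 could be compared. Of these 7 were above 0 and 8 below, with a median log2 fold change of -0.022 against 0.036 over all genes with a kept probe, and 0 passed an adjusted p of 0.05 from limma. Hmox1, the stress-inducible heme oxygenase, read 2.77, 2.94 and 2.85 in the controls and 2.42, 2.58 and 2.14 with C3a, a log2 fold change of -0.47 (standard error 0.13, adjusted p = 0.743 from limma). Its unadjusted p was 0.00887 in limma. The groups of Hmox1 did not overlap, nor did those of Spp1 (osteopontin), where 13% of all genes with a kept probe had groups that did not. Il6, Mmp3, Mmp9 and Plau were not well above background on any array.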
